A study of Homo sapiens with 17 samples.

Results

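The 6 genes PRPF39, GEMIN2, SEC23A, PNN, TRAPPC6B and VCPKMT lie on chromosome 14 between 39.0 and 50.9 Mb (GRCh38), in a window of 11.9 Mb that holds 249 of the 88413 HindIII fragments listed in Promoter Capture Hi-C (PCHi-C) data of human pluripotent stem cells (PSCs). The window was selected on its PCHi-C interaction counts, which are higher in naive than in primed PSCs, so those counts are given as a description and carry no test. The genes' starts, as GENCODE places them, fall in 5 of the 15982 baited fragments, and these baits were listed with 99 other fragments, which makes 104 fragments in all. PCHi-C joins DNA ends that lie close together in fixed nuclei and captures the pairs that contain a promoter bait. The authors listed each pair of fragments with a CHiCAGO score of at least 5, which grades how far the reads exceed those expected at that distance, and pairs under that score were not analysed here.

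Naive and primed PSCs were the isogenic NK2 cells of the established embryonic stem cell line H9, a single line, with no donor replication. Naive cells were kept in medium with the MEK inhibitor PD0325901, the GSK3 inhibitor CHIR99021, human LIF and the PKC inhibitor Go6983 on Matrigel, and primed cells in TeSR-E8 on Vitronectin, both under reduced oxygen. The PCHi-C data are 1 list per cell type made from 2 replicates, the Hi-C data 1 library per cell type (31310843 naive and 52056334 primed di-tags), and the H3K4me1 profiles 5 CUT&RUN libraries, 2 of naive and 3 of primed PSCs, of 6743809 to 26596518 reads. H3K4me1, the mark that is deposited on enhancers and on the flanks of active promoters, played no part in the choice of the window and is the measure tested here. Of the naive marker genes fixed for a check of the labels, 4 of 7 had a listed bait. H3K4me1 was higher in naive PSCs at the baits of DPPA5 and DPPA3. It did not pass at those of KLF17 and SUSD2 (limma adjusted p of 0.279 and 0.0725). Of the primed marker genes, 5 of 7 had a listed bait. Among these baits 0 passed the limma test in either direction (0 also at an unadjusted p under 0.05, and 1 by edgeR, higher in primed PSCs). Their listed interactions numbered 26 in naive and 70 in primed PSCs.

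The 6 proteins belong to housekeeping machines. PRPF39 takes part in recognition of the 5′ splice site with the U1 snRNP, GEMIN2 holds Sm proteins in the SMN complex, which loads them onto snRNAs, and PNN (pinin) is a nuclear speckle protein tied to exon junction complexes. SEC23A is the inner coat subunit of the COPII vesicles that leave the endoplasmic reticulum, and TRAPPC6B is a subunit of the TRAPP complex that tethers such vesicles. VCPKMT methylates the ATPase VCP. Promoters such as these commonly contact other promoters and enhancers within the same domain of a chromosome.

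The GEMIN2 and SEC23A starts shared 1 bait, at chr14:39099739-39119619, and the PNN and TRAPPC6B starts another, at chr14:39170114-39177013, so the values of each pair cannot be separated. PRPF39 had 2 baits, at chr14:45083794-45089087, which holds the start of 5 of its 12 transcripts, and at chr14:45109450-45114994 in the 3′ part of the gene, which holds the start of 2. VCPKMT had 1 bait, at chr14:50101698-50117311, which also holds starts of the long noncoding RNA LINC01588. Each of the 249 fragments of the window began inside a HindIII site, and 30 bases of the reference across the lower end of each of the 5 baits, with the site in capitals, show where the captured fragments start:
GEMIN2 and SEC23A bait: aggtcactcctAAGCTTtcagattccacac
PNN and TRAPPC6B bait: ctaattcttccAAGCTTcgagttttggctc
PRPF39 start bait: ttttagtgtgaAAGCTTgaacaattgtagg
PRPF39 3′ bait: atttgtttgtaAAGCTTaaggaatttaagg
VCPKMT bait: gcttctcatctAAGCTTcgtataaaaaaaa

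The promoters of GEMIN2 and VCPKMT are shown over the bases before their RefSeq start (GRCh38.p14) that lie outside GENCODE exons, because their baits had the widest and the narrowest H3K4me1 difference of the 5. Capitals mark, on either strand, the GC box, searched as GGGCGG, the CCAAT box, searched by those letters, the ETS core, searched as CGGAAG, and the TATA box, searched as TATAAA:
GEMIN2, plus strand, chr14:39114073-39114284: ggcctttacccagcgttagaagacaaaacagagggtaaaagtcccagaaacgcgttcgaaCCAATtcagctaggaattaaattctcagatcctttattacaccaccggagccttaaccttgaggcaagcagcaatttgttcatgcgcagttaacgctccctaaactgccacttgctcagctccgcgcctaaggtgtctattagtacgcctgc
VCPKMT, minus strand, chr14:50116601-50116822: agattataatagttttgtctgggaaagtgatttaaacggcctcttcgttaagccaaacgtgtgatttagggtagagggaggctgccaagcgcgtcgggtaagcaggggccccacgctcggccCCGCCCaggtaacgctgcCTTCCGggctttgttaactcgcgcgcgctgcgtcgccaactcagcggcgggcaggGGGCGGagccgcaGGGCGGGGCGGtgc

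In the 250 bases before the start, GEMIN2 held 1 CCAAT box, no GC box and no ETS core, and VCPKMT held 4 GC boxes, 2 of which overlap, and 1 ETS core. SEC23A held 2 GC boxes and 2 ETS cores, PNN held 1 GC box, 2 ETS cores and 2 CCAAT boxes, and TRAPPC6B held 1 GC box and 1 ETS core. The TATA box was found in none of these 5 windows. Of 35116 RefSeq promoters of the same length, 42.6% held the GC box, 32.0% the CCAAT box, 16.5% the ETS core and 10.7% the TATA box. GEMIN2 was the least GC-rich of the 5 (50.4%) and SEC23A the most (70.0%), against a median of 58.0% over all promoters. PRPF39 was not in the promoter table.

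The interaction excess of the window in naive PSCs lay for the most part outside the baits of the 6 genes, which are 5 of its 38 baits. The whole window had 373 interactions in the naive list and 184 in the primed list, of which 120 were in both, while the 5 baits of the 6 genes had 94 and 76, with 50 in both. Without those baits the counts were 279 and 108. The ratio of naive to primed interactions was thus 2.03 for the window, 1.24 for the 5 baits and 2.58 for the remainder, against 0.891 over the whole lists (79330 and 88985 interactions). At least 2 times as many interactions in naive PSCs were listed for 25 of the 38 baits of the window and for 1 of the 5, against 31.7% of all baits, and the reverse for 2 and 0, against 29.5%; since the window was chosen on these counts, nothing is read from the comparison.

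Bait by bait, the counts of PRPF39 were equal or nearly so in both lists. The GEMIN2 and SEC23A bait had 19 naive and 17 primed interactions, with 9 in both lists, but 11 and 6 at scores of at least 7 and 3 and 1 at scores of at least 10. The PRPF39 start bait had 9 and 10 with 5 in both, and the 3′ bait of PRPF39 had 25 in each list with 15 in both. The VCPKMT bait had 29 and 18 with 17 in both. The PNN and TRAPPC6B bait was the 1 of the 5 past 2 times, with 14 naive and 6 primed interactions and 4 in both.

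Among the baits of other genes, 10 were taken for the widest gap between the lists. The long noncoding RNA ENSG00000258949, whose bait was a partner of both PRPF39 baits in both lists, had 49 naive and 19 primed interactions. At LINC01588, 3 baits had 43 and 21, 19 and 1, and 10 and 2, and that of the small nuclear RNA gene RNU6-189P, in the same stretch, had 26 and 9. The bait of STK16P1 and RNU6ATAC30P had 13 and 1. The baits of MGAT2, a Golgi enzyme of N-glycan synthesis that shares its fragment with RPL36AL, and of POLE2, a subunit of DNA polymerase epsilon, had 9 and 8 in naive PSCs and none in primed PSCs. NEMF, a factor of ribosome quality control, and the shared bait of ATL1 and MAP4K5 each had 14 and 6.

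Gaps of over 1 Mb between neighbouring baits divided the window into 5 groups, and the 6 genes lie in 3 of them. The group of GEMIN2, SEC23A, PNN and TRAPPC6B had 44 naive and 27 primed interactions, that of PRPF39 102 and 67, and that of VCPKMT 209 and 71. These groups were tied together by very few pairs. In naive PSCs the PRPF39 start bait was joined to the bait of LRR1 and RPS29 over 4511 kb with a score of 5.41 and 4 reads. In primed PSCs the PNN and TRAPPC6B bait was joined to that of ENSG00000258949 over 5737 kb with a score of 6.20 and 4 reads. These pairs of 4 reads are the only links between the groups they join. The largest connected piece held 170 fragments in naive PSCs, around PRPF39 and VCPKMT, and 66 in primed PSCs, around PRPF39 and the GEMIN2 group. Interactions over 1 Mb or with another chromosome numbered 2 in the naive and 11 in the primed list, and 1 pair with another chromosome was in both.

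Although totals were alike, the partners of the PRPF39 baits lay on different sides in the 2 lists. The 3′ bait had 20 partners on the lower-coordinate side and 5 on the higher side in the naive list, and 11 and 14 in the primed list. Of its 10 naive-only partners 9 lay on the lower side, towards KLHL28 and TOGARAM1 (a ciliary microtubule protein), 25.8 to 178 kb away. All 10 primed-only partners lay on the higher side, the nearest of them 4.36 kb away. The start bait had 7 partners on the lower and 2 on the higher side in the naive list, and 5 and 5 in the primed list. Its 5 primed-only partners were all on the higher side and its 5 shared partners all on the lower side, while its 4 naive-only partners lay 2 on each side. Both PRPF39 baits took partners from 1 stretch of chromatin, so the second count is not independent of the first.

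Of the 15 partners that the 3′ bait of PRPF39 had in both lists, 10 lay around ENSG00000258949, 157 to 213 kb away, and the other 5 lay 10.1 to 120 kb away, 4 of them on the higher side. The ENSG00000258949 bait was the highest-scoring partner of the 3′ bait in both lists, with a score of 30.2 and 62 reads in naive and 21.2 and 70 reads in primed PSCs. For the start bait it scored 9.71 with 37 reads in naive and 13.9 with 63 reads in primed PSCs. The 2 PRPF39 baits were joined to each other only in the naive list, with a score of 5.32 and 95 reads. The bait of C14orf28 was a partner of the 3′ bait in both lists.

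For GEMIN2 and SEC23A the partners differed in distance. All of them lay on the higher-coordinate side. The 10 naive-only partners were at a median of 61.9 kb and the 8 primed-only partners at a median of 263 kb. The near naive-only partners ran into TRAPPC6B and ended at the PNN and TRAPPC6B bait, a pair of baits joined with a score of 10.7 and 53 reads in naive PSCs and not listed in primed PSCs. Partners in both lists included the bait of one MIA2 promoter (MIA2 acts in export of bulky cargo from the endoplasmic reticulum) and a run of fragments 255 to 264 kb away. The bait of FBXO33, an F-box protein, was listed with GEMIN2 and SEC23A in primed PSCs with a score of 8.13, and with PNN and TRAPPC6B in both, with scores of 15.9 in naive and 11.8 in primed PSCs.

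The PNN and TRAPPC6B bait had 5 partners on the lower side, within and beside SEC23A, all of them in the naive list alone. On the higher side it had 9 naive and 6 primed partners. Hence the naive list joined the GEMIN2 and SEC23A promoters and the PNN and TRAPPC6B promoters from both baits, and the primed list did not join them.

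VCPKMT contacted a block of fragments around NEMF and ARF6, a small GTPase of membrane traffic, in both cell types. The NEMF bait scored 19.8 in naive and 12.2 in primed PSCs, and the ARF6 bait 10.9 and 9.39. Of the 12 naive-only partners 10 lay on the same, lower-coordinate side. Apart from the bait of LRR1 and RPS29, 512 kb away, these reached up to 346 kb, while the partners in both lists reached up to 262 kb. The single primed-only partner lay inside the block, 242 kb away.

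**Figure D1:**
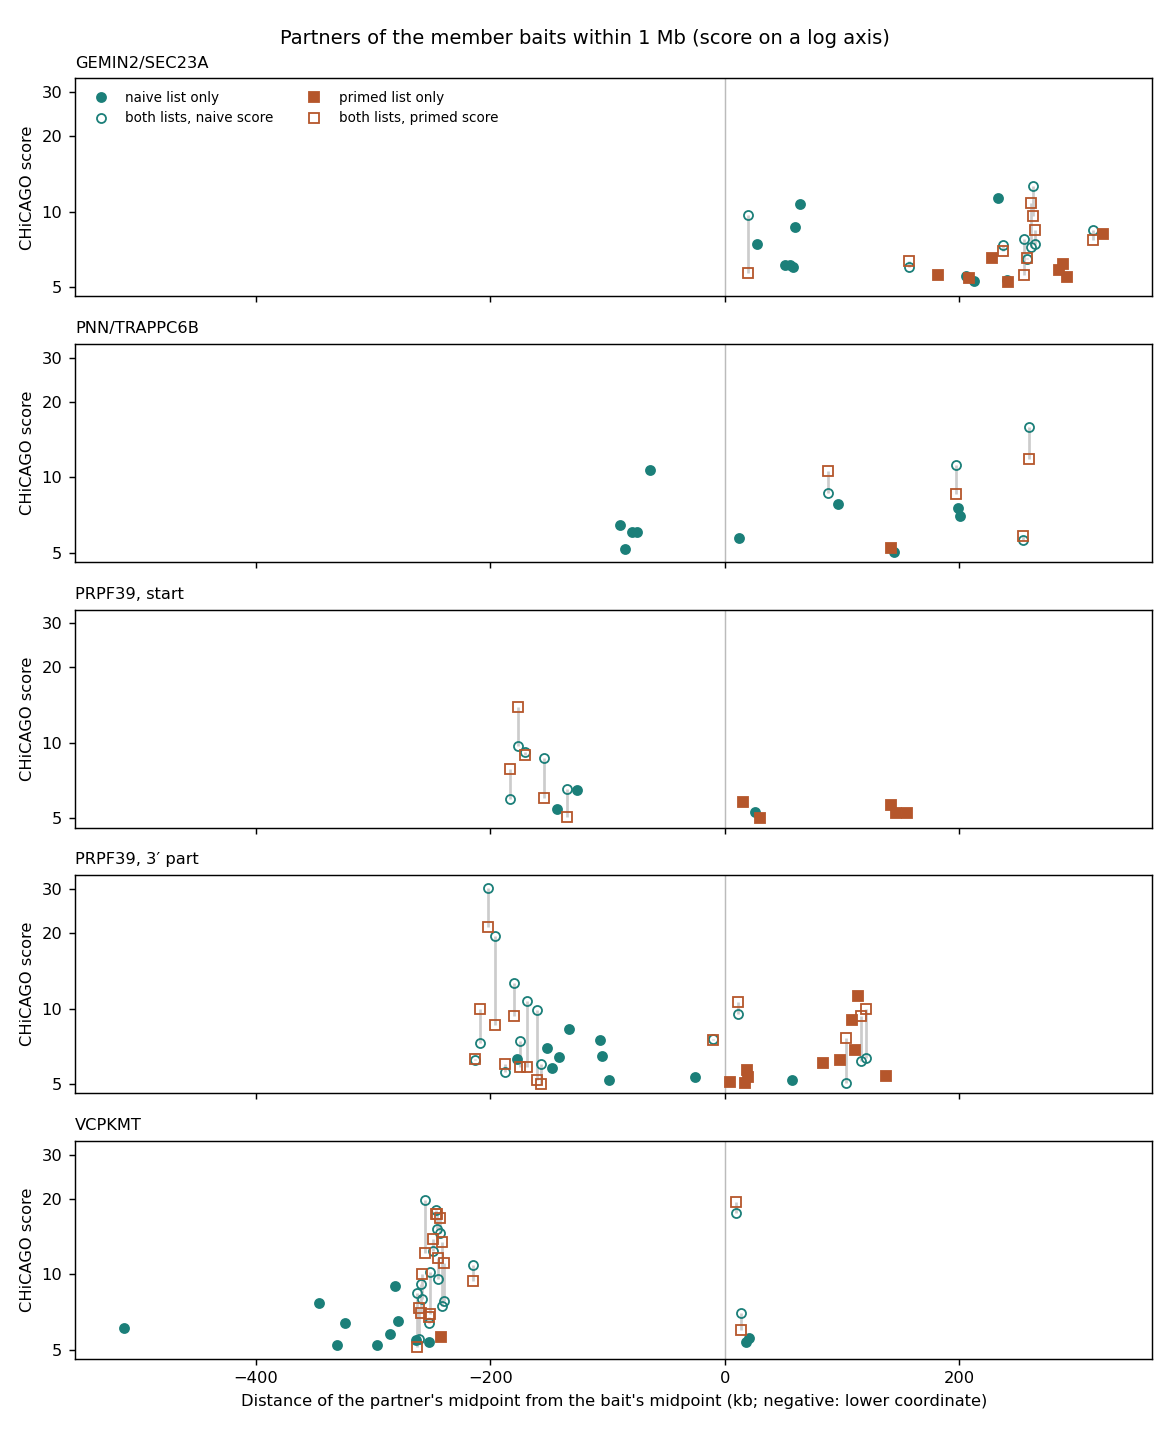
Each panel shows 1 bait of the 6 genes and its partners within 1 Mb by distance (kb; negative values are lower coordinates) and CHiCAGO score (log axis). Filled symbols are pairs in 1 list and open symbols, joined by a line, pairs in both; primed-only partners of PRPF39 lie to the right of the baits and 9 of the 10 naive-only partners of its 3′ bait, 1 of them the PRPF39 start bait itself, to the left.

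Most pairs found in 1 list stood near the limit of the lists. Of the 44 naive-only pairs of the 5 baits, 33 scored under 7 and 2 at least 10, with a median of 6.10 and a lowest score of 5.02. Of the 26 primed-only pairs, 23 scored under 7 and 1 at least 10, with a median of 5.65 and a lowest of 5.00. The 50 pairs in both lists had median scores of 8.45 in naive and 8.5 in primed PSCs. When pairs were matched with both ends within 10 kb instead of by identical fragments, the share of the naive pairs that also stood in the primed list went from 53.2% to 73.4%.

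In the pairs that both lists contain, the combined read number was lower in naive PSCs. Over the 50 shared pairs of the 5 baits the median ratio of naive to primed reads was 0.680, with fewer naive reads in 42 pairs and more in 6. Over the 120 shared pairs of the window it was 0.800, and over the 39360 shared pairs of the genome 0.864. The ratio was 0.609 for GEMIN2 and SEC23A (lower in 9 of 9 pairs), 0.90 for PNN and TRAPPC6B, 0.852 for the PRPF39 start, 0.760 for its 3′ bait and 0.667 for VCPKMT. In the window as a whole, more listed interactions thus stood beside fewer reads in the shared pairs; the read numbers are scaled and combined by the authors, and the coverage of each bait was not analysed here.

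Near-range Hi-C, which uses no capture, gave almost the same contact level in both cell types across the window. Over 118 pairs of adjacent 100 kb bins, the window held 45882 naive and 54340 primed di-tags, and after scaling to the genome total at that distance (9765244 and 11431111) the naive to primed ratio was 0.988 (95% counting interval 0.976 to 1.00). The ratio was 0.988 in the GEMIN2 group, 0.973 in the PRPF39 group and 1.02 in the VCPKMT group. Bin pairs at least 1.25 times higher in naive PSCs numbered 7 of 118 and those at least 1.25 times higher in primed PSCs 4, against 11.7% and 5.21% of bin pairs genome-wide. With the remainder of chromosome 14 as the scale the ratio was 0.945. Chromosome 14 took 3.38% of the adjacent di-tags in naive and 3.25% in primed PSCs, and 3.73% of the ends of contacts between chromosomes in each.

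At the bin pairs of the PCHi-C interactions the median Hi-C ratio was below 1 in each class. Bin pairs that the naive file does not list were left out, 4 of 43 for naive-only and 7 of 27 for primed-only interactions of the window, and 2 of 10 and 1 of 8 for the baits of the 6 genes. For the window the median ratio was 0.993 over 39 bin pairs of naive-only interactions (18 of them above 1), 0.931 over 22 of interactions in both lists and 0.876 over 20 of primed-only interactions. For the baits of the 6 genes the medians were 0.913 over 8, 0.957 over 8 and 0.795 over 7 bin pairs. A 100 kb bin holds many fragments, and with 1 library per cell type none of these ratios has a replicate check.

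**Figure D2:**
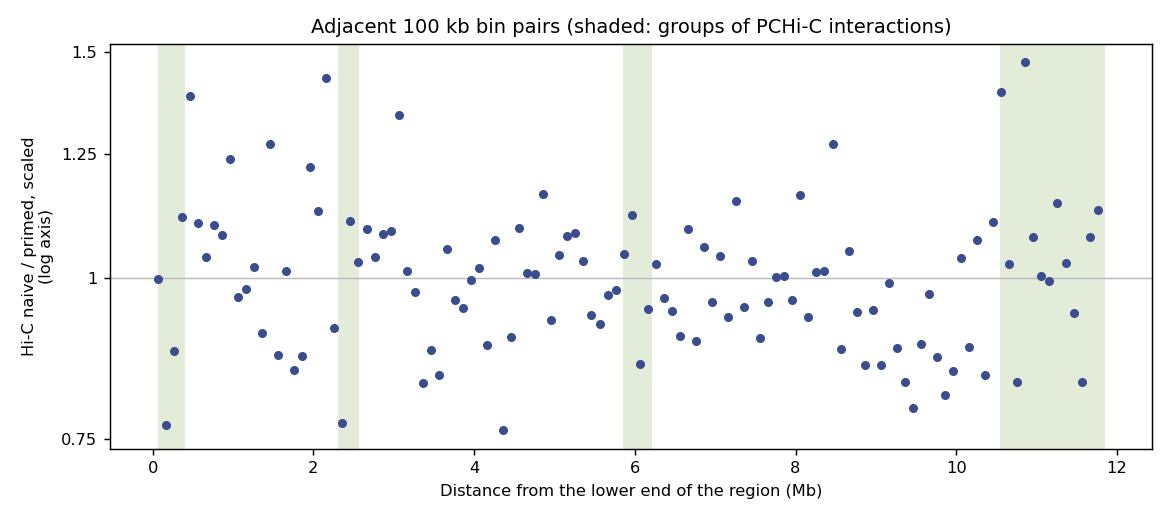
Points are the naive to primed ratios of Hi-C di-tags in the 118 adjacent pairs of 100 kb bins (log axis), scaled to the genome total, by distance from the lower end of the window (Mb); shaded bands are the groups of PCHi-C interactions. The points scatter around 1 inside and outside the bands, with a median of 1.00.

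H3K4me1 was higher in naive PSCs at 4 of the 5 baits of the 6 genes. By limma with Benjamini-Hochberg adjustment over all 88413 fragments, 13.2% of fragments were higher in naive and 8.19% higher in primed PSCs. Values are the mean log2 RPM over the 500 bp tiles of a fragment. At the GEMIN2 and SEC23A bait they were 0.34 and 0.24 in naive and -1.74, -2.06 and -2.15 in primed PSCs. The naive libraries stood above all primed libraries, and the difference was 2.27 on the log2 scale (SE 0.36, limma adjusted p = 0.000121). This call held in every alternative run. Separation of the libraries, here and below, is given without the share of all fragments that separate and adds no support to a call. Of the 24 tiles tested in this bait, 17 were higher in naive PSCs. A tile was tested where log2 RPM exceeded 0 in at least 2 libraries, which the 2 naive libraries alone can meet. Tiles can thus be tested through the group where they are high. Counts of tested tiles within a bait or partner, here and below, therefore add no support to its call.

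The PNN and TRAPPC6B bait had 0.19 and 0.09 in naive and -1.26, -1.45 and -1.63 in primed PSCs. The groups did not overlap, and the difference was 1.59 (SE 0.36, limma adjusted p = 0.00273). It missed the threshold without naive replicate 1 (1.54, limma adjusted p = 0.0694). In this bait 4 of 8 tiles tested were higher in naive PSCs.

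At PRPF39 both baits were higher in naive PSCs although their interaction counts were equal or nearly so. The start bait had 0.37 and 0.40 in naive and -0.43, -1.62 and -0.90 in primed PSCs, a difference of 1.37 (SE 0.39, limma adjusted p = 0.0161), and 5 of its 8 tiles tested were higher in naive PSCs. The 3′ bait stood at a lower level, -1.86 and -1.69 in naive and -3.26, -2.96 and -3.04 in primed PSCs. The difference was 1.31 (SE 0.38, limma adjusted p = 0.0168), and none of its tiles reached the level needed for the test by tile. An empty tile stands at -4.60 and -2.91 in the naive and at -3.30, -3.13 and -4.89 in the primed libraries. The values of primed replicates 1 and 2 thus lay near those of empty tiles. At each PRPF39 bait every naive library exceeded every primed one. Both calls were lost when either naive library was left out: without naive replicate 1 the limma adjusted p was 0.165 at the start and 0.0700 at the 3′ bait, without naive replicate 2 it was 0.142 and 0.0825, and with each library centred on its median it was 0.0866 at the start.

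VCPKMT did not pass the test. Its bait had -0.83 and -0.68 in naive and -1.71, -1.90 and -1.62 in primed PSCs. The difference of 0.99 (SE 0.35) had a limma adjusted p of 0.0518, and this p was 0.0112 when fragments with low values were left out. Of the 8 tiles tested in this bait 0 passed by limma, and 0 had an unadjusted p under 0.05.

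**Figure D3:**
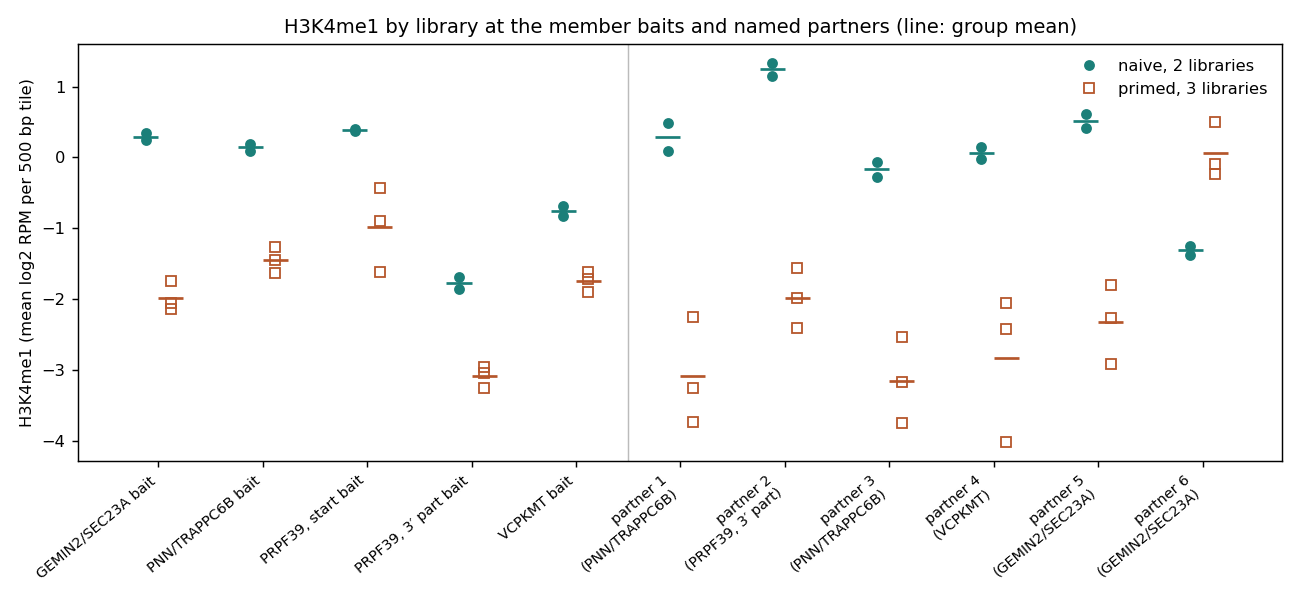
Points are the H3K4me1 values (mean log2 RPM per 500 bp tile) of each naive and primed library at the 5 baits, left of the line, and at the 6 named partner fragments, right of it, of which partner 1 to partner 5 run by size of the difference from the fragment in SEC23A to that in TRAPPC6B and partner 6 is the one in MIA2; short lines are group means. The 6 partners were chosen for the size of their called differences, so the separation of their libraries follows from that choice.

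Among the 99 partners of the 5 baits, 37 were higher in naive and 1 higher in primed PSCs by the same test (limma adjusted p under 0.05), that is 37.4% and 1.01%, against 13.2% and 8.19% of all fragments. The median difference was 0.80 on the log2 scale, against 0.06 over all fragments, and 89 of 99 values were above 0. Without naive replicate 1 the number higher in naive PSCs was 18 and without naive replicate 2 it was 21, while the calls over all fragments went from 11658 to 5871 and 5138. The single call in the primed direction was lost in both. Over the whole window 85 of 249 fragments were higher in naive and 4 higher in primed PSCs, and these counts became 41 and 1 without naive replicate 1, and 55 and 2 without naive replicate 2.

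Fragments higher in naive PSCs were found among the partners of every class. Partners of naive-only interactions were higher in naive PSCs in 17 of 35 cases (median 1.21), partners in both lists in 15 of 46 (median 0.68) and partners of primed-only interactions in 5 of 18 (median 0.73). These classes refer to the 5 baits: with other baits, 12 of the 18 primed-only partners stood in the naive list, among them all 5 that were higher in naive PSCs, and 8 of the 35 naive-only partners stood in the primed list. The difference between the classes was not tested. Over the genome, non-bait fragments of naive-only interactions were higher in naive PSCs in 17.3% of cases and those of primed-only interactions in 9.26%, with medians of 0.17 and -0.08. By bait, 6 of 27 partners of GEMIN2 and SEC23A, 6 of 16 of PNN and TRAPPC6B, 5 of 14 of the PRPF39 start, 15 of 35 of its 3′ bait and 13 of 30 of VCPKMT were higher in naive PSCs.

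**Figure D4:**
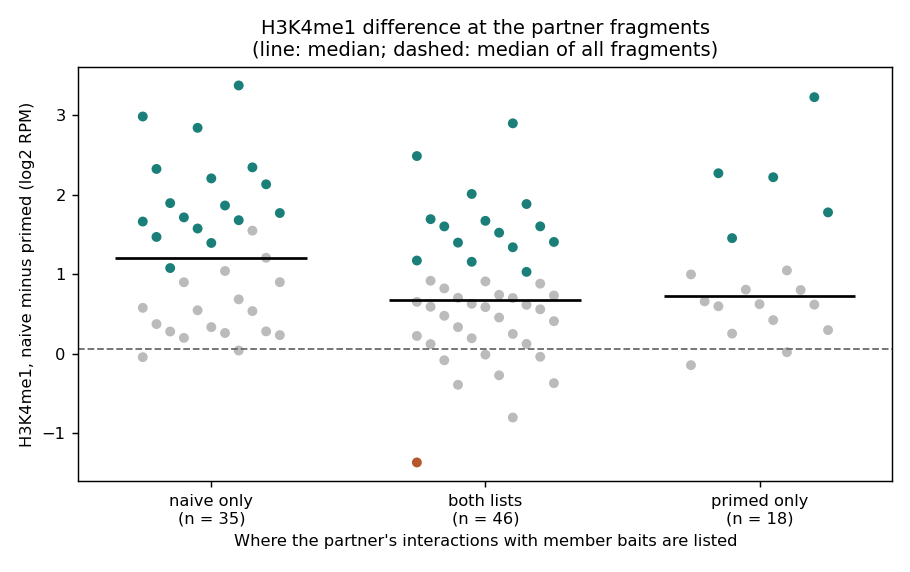
Each point is 1 of the 99 partner fragments by the list its interactions stand in and its H3K4me1 difference (naive minus primed, log2 RPM). Green marks fragments higher in naive and orange fragments higher in primed PSCs (limma adjusted p under 0.05); lines are class medians, and all 3 lie above the dashed median of all fragments, 0.06.

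The partner with the widest difference lay inside SEC23A. This fragment, chr14:39086339-39090480, overlaps exons and introns of the gene and was a naive-only partner of PNN and TRAPPC6B. It had 0.49 and 0.10 in naive and -3.26, -2.25 and -3.73 in primed PSCs, a difference of 3.38 (SE 0.42, limma adjusted p = 1.28e-05), and all 5 of its tiles tested were higher in naive PSCs. The neighbouring fragment, chr14:39081554-39086338, also in SEC23A and also a naive-only partner of PNN and TRAPPC6B, differed by 2.99 (SE 0.39). A fragment in an intron of TRAPPC6B, chr14:39164024-39166536, was a naive-only partner of GEMIN2 and SEC23A and differed by 2.84 (SE 0.39). Each of these 3 fragments thus lay in a gene of the other bait. So did some further naive-only partners of both baits, while others did not.

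The second widest difference was at a partner that the 3′ bait of PRPF39 had in the primed list alone. The same fragment stood in the naive list, and not in the primed list, with ENSG00000258949, with a score of 6.64 and 36 reads. It is an intronic fragment of FKBP3, a nuclear immunophilin, at chr14:45131685-45132104. It had 1.34 and 1.15 in naive and -1.56, -1.98 and -2.41 in primed PSCs, a difference of 3.23 (SE 0.37, limma adjusted p = 7.59e-06). Only 1 tile centre lies in it. The fourth, chr14:49869055-49870187, overlaps no annotated gene and was a partner of VCPKMT in both lists, with a difference of 2.90 (SE 0.46).

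One partner was higher in primed PSCs. This fragment, chr14:39365579-39369743, lies in MIA2 outside its exons and was a partner of GEMIN2 and SEC23A in both lists, with scores of 6.51 and 6.56, and of a MIA2 bait in naive PSCs alone. It had -1.37 and -1.24 in naive and 0.51, -0.09 and -0.23 in primed PSCs, a fall of the naive level by 1.37 (log2 difference -1.37, SE 0.37, limma adjusted p = 0.0109). Of its 6 tiles tested, 3 were higher in primed PSCs. It missed the threshold when either naive replicate was left out, with limma adjusted p of 0.151 and 0.0962.

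The reference sequence of 200 bases at the centre of the tile with the widest difference is shown for the partner in SEC23A, for the partner in FKBP3 and for the partner in MIA2, since these had the 2 widest differences towards naive PSCs and the 1 towards primed PSCs; capitals mark the HindIII site at which the FKBP3 fragment starts:
SEC23A fragment, chr14:39087150-39087349: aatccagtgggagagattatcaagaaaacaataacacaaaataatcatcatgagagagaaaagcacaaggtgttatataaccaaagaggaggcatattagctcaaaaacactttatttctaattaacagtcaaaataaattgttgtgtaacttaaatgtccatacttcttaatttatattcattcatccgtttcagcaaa
FKBP3 fragment, chr14:45131650-45131849: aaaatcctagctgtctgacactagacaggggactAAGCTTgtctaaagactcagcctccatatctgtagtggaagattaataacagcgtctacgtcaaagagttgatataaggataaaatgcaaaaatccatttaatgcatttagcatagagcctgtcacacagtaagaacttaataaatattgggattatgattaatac
MIA2 fragment, chr14:39367650-39367849: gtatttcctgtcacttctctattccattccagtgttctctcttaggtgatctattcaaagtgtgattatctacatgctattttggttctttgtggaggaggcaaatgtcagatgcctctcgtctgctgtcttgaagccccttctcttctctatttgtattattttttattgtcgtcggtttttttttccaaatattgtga

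All 3 sequences are poor in CpG, with 1, 2 and 3 CpG in 200 bases and 29.5%, 35.5% and 37.5% GC. None lies in an exon. The tile in SEC23A stood at 0.91 and 0.71 in naive and -3.30, -2.98 and -4.89 in primed PSCs. The values of primed replicates 1 and 3 are those of an empty tile, and that of primed replicate 2 stands for 1 read. The tile in MIA2 stood at -0.64 and -2.91 in naive and 1.81, 0.34 and 1.22 in primed PSCs, and the value of naive replicate 2 is that of an empty tile.

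Among the tested tiles of the window, calls towards naive PSCs prevailed within the groups of baits and calls towards primed PSCs between them. By tile, 448 of 1097 tested tiles of the window were higher in naive and 195 higher in primed PSCs (limma adjusted p under 0.05), against 26.1% and 25.9% of all tiles tested. In the GEMIN2 group 88 of 127 tiles were higher in naive and 3 higher in primed PSCs, in the PRPF39 group 59 of 97 and 0 (0 in the primed direction also at an unadjusted p under 0.05), and in the VCPKMT group 189 of 397 and 14. Within the spans of the 5 groups, 2.28 Mb in all, 350 of 662 tiles were higher in naive and 20 higher in primed PSCs. In the other 9.58 Mb of the window these were 98 and 175 of 435 tiles. The filter admits tiles through the group where they are high, so these counts describe the tested tiles only and add no support. This split was not made without the filter.

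Among the baits that interact with the 5 baits, H3K4me1 was higher in naive PSCs at C14orf28 (1.17), KLHL28 and TOGARAM1 (1.08) and LRR1 and RPS29 (1.58), and did not pass at ENSG00000258949 (0.56), FBXO33 (0.61), ARF6 (0.63), NEMF (0.33) and the interacting MIA2 bait (0.74). The call at RNU6-189P held in every alternative run. That at LRR1 and RPS29 was lost without naive replicate 1 (limma adjusted p = 0.0855). Those at C14orf28 and at KLHL28 and TOGARAM1 were lost without either naive replicate (limma adjusted p from 0.0728 to 0.225), without primed replicate 3 (0.0972 and 0.147), with each library centred on its median (0.0644 and 0.122) and with the replicate number as a block (0.0839 and 0.147), and the latter also by edgeR and on the log2 of the mean RPM. LRR1 and RPS29 were listed with PRPF39 and VCPKMT in naive PSCs alone. Of the 38 baits of the window 16 were higher in naive PSCs and 0 higher in primed by the limma test. At an unadjusted p under 0.05 these were 18 and 0, and by edgeR 15 and 0. RNU6-189P had the widest difference of them, 2.87, with 0.80 and 0.73 in naive and -1.88, -2.22 and -2.21 in primed PSCs. The ENSG00000258949 bait and the LINC01588 bait with 43 naive interactions, the baits with the most interactions in the window, had differences of 0.56 and 0.06 that did not pass, with limma adjusted p of 0.336 and 0.958.

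Other genes of the same complexes were examined at their baits in the whole genome, where 15.1% of baits were higher in naive and 6.38% higher in primed PSCs; each list includes its gene of the region. In the SMN complex 3 of 6 baits were higher in naive PSCs, GEMIN2 and, outside the region, GEMIN5 (1.53), which recognises snRNAs, and GEMIN6 (1.37). Of the U1 snRNP and its associated proteins 6 of 8 were, with the widest differences at SNRPC (2.57) and at both PRPF39 baits. Of the exon junction and pinin complexes 5 of 12 were, among them PNISR (2.20) and RBM8A (2.01). For the COPII coat it was 3 of 11, including SAR1A (1.86) and a SEC16A bait (1.10). For the TRAPP complex it was 3 of 15, including a bait of TRAPPC8 (2.21) and a bait of TRAPPC11 (1.91). The other bait of SEC16A (0.49), of TRAPPC8 (0.93) and of TRAPPC11 (0.55) did not pass (limma adjusted p of 0.433, 0.117 and 0.495). For VCPKMT and related methyltransferases it was 2 of 9, ETFBKMT (2.62) and METTL23 (1.63). Of the 59 baits in these 6 lists 0 were higher in primed PSCs by limma or by edgeR, and 1 was at an unadjusted p under 0.05 by limma. The interactions listed for these baits numbered 70 in naive and 83 in primed PSCs for the SMN complex, 56 and 52 for the U1 list, 62 and 51 for the exon junction list, 74 and 61 for the COPII coat, 79 and 93 for TRAPP and 79 and 89 for the methyltransferases.

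Outside the window, the baits most like the PRPF39 start bait in interactions and H3K4me1 were those of TRAPPC8, PLOD2, TM7SF3, LMNB1 and FNDC3B. Of the baits of TRAPPC8, the one with a difference of 0.93 was among them, and it did not pass the H3K4me1 test. The calls at the baits of PLOD2, TM7SF3, LMNB1 and FNDC3B are not given here. Likeness was the Euclidean distance over 7 values, the log2 of the interactions plus 1 in each list and the 5 H3K4me1 levels, and it ran from 0.713 to 0.843.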

How the data were processed

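The authors mapped PCHi-C and Hi-C read pairs to GRCh38 with HiCUP, and combined 2 PCHi-C replicates per cell type in CHiCAGO. Each deposited interaction has a CHiCAGO score and a scaled, combined read number. The deposited Hi-C values are di-tag counts per pair of 100 kb bins, without pairs inside 1 bin. For H3K4me1 the authors trimmed reads (Trim Galore 0.5.0), mapped them (Bowtie2 2.3.2) and tiled the genome in 500 bp; the deposited log2 RPM value of a tile without reads equals that of 0.9 reads. NANOG, SOX2 and input libraries were not used here, and 1 bait of the window is not reported here.

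Column 4 of the interaction lists gives no gene names, so baits were assigned from GENCODE release 44 (transcript start and 1000 bp upstream). Interactions listed from both ends were merged. H3K4me1 was averaged per fragment and compared with limma 3.58.1 (eBayes with trend, R 4.3.3, Benjamini-Hochberg over all fragments, threshold 0.05), and by tile where log2 RPM exceeded 0 in at least 2 libraries; the script was tested on simulated data. Labels do not say whether replicates came from separate cultures, so p-values measure the spread between these libraries. The interval given with the Hi-C ratio covers counting error only. PCHi-C and Hi-C had no test.

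Named genes were the 6 members, the 10 other baits of the window with the largest difference in interactions, baits that interact with members, up to 5 partners in each direction with the largest H3K4me1 change, up to 3 baits per list of related genes, and the 5 baits most like PRPF39. Members and lists were chosen with earlier results of these data known. Further tools were Python 3.11.15, pandas 2.3.3, python-igraph 0.11.9 and edgeR 4.0.16, the last for an alternative on reads recovered from the log2 RPM values.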

Additional observations from a re-analysis of the deposited data

How the results depend on the processing

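The naive to primed ratio of interactions in the window was 2.50 at scores of at least 7, against 2.03. Single baits rested on few pairs: at scores of at least 10 the GEMIN2 and SEC23A ratio moved from 1.12 to 3.0 (3 and 1 pairs) and the PRPF39 start had 0 and 1 pairs, VCPKMT turned to 0.80 at scores of at least 10 (8 and 10 pairs) and the PRPF39 start to 1.5 with equal numbers of top-scoring pairs per list (9 and 6). Matching both ends within 10 kb moved the shared percentage of naive pairs to 73.4%, and scaling Hi-C on the remainder of chromosome 14 moved the window's ratio to 0.945. Contacts inside 1 bin of 100 kb were not analysed because the files used here hold no such pairs.

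Leaving out each H3K4me1 library in turn gave 18 to 38 partners higher in naive and 0 to 1 higher in primed PSCs, and 41 to 95 and 1 to 5 fragments of the window; a lone naive library was assumed to vary like the primed ones. With low fragments left out, 2 fragments of the window were higher in primed PSCs. Without the filter on low tiles, 1035 of 23705 tiles of the window were higher in naive and 506 in primed PSCs. Over all 6176584 tiles these were 259041 and 233664. The naive share of the window thus lay near that of the genome, and the primed share below it. Over all fragments, calls higher in naive and in primed PSCs went from 11658 and 7243 to 5871 and 1866 without naive replicate 1.

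Replicate numbers are shared by 2 pairs of libraries whose deviations correlate at 0.07 and 0.18. The deviations of the 2 naive libraries mirror each other, so these values are not independent. They cannot decide whether libraries of the same number were handled together. With the replicate number as a block, 33 partners were higher in naive and 1 higher in primed PSCs, 82 and 4 fragments of the window, and of the baits of the 6 genes and the 6 named partners none changed its call; C14orf28 and KLHL28 with TOGARAM1 lost theirs (limma adjusted p of 0.0839 and 0.147). Of 129 alternatives for values of single baits and partners of the 6 genes, 116 kept direction and side of the threshold and 13 did not; the cause of the changes was not tested.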
